A study of Oryza sativa with 3 samples.

Results

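The regions described here are peaks that lay near each other in small groups along the rice genome. The peaks of 3 deposited lists were pooled, those that overlapped by at least 1 bp were merged into regions, and regions of the same chromosome were chained where the gap between them was at most 20 kb. A chain of 2 to 9 merged regions is called a small cluster. There were 228 such regions of 853 merged regions in all (26.7%), in 69 chains of 442. The other merged regions were 363 isolated ones, with no neighbour within 20 kb, and 262 in dense clusters of 10 or more. The starts and ends of the peaks in these lists chose the members. Every measure made from those positions (spans, gaps, lengths, overlaps between lists and coinciding edges) is therefore a description with no test, and each overlap counts in both of its lists.

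The peaks come from chromatin immunoprecipitation and sequencing (ChIP-seq) with an anti-Flag antibody in rice (Oryza sativa) seedlings aged 2 weeks. All 3 samples had the genotype WYJ7-dep1-1/p35S::Flag-ngr2. The plants thus carried a Flag-tagged ngr2 protein driven by the 35S promoter in WYJ7, a japonica rice, with the dep1-1 allele. The 35S promoter is active in most plant tissues, so the tagged protein need not follow the expression pattern of the native gene, and whole seedlings mix many cell types. The samples form 1 group of 3 and no untagged, input or other genotype was analysed here, so no enrichment can be set against a control. Whether the samples came from separate plants is not stated, so their spread may be purely technical. The title of replicate 3 differs in form from those of replicates 1 and 2, while its genotype, tissue and antibody are labelled alike.

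As background, ngr2 is an allele of GRF4, a growth-regulating factor. These plant transcription factors bind DNA through a WRC domain, recruit GIF coactivators through a QLQ domain and are repressed by the microRNA miR396. GRF4 is known in rice for larger grains and for promoting nitrogen uptake and carbon assimilation. DEP1 encodes a gamma subunit of a heterotrimeric G protein, and dep1-1 gives dense, erect panicles and a changed response to nitrogen. In ChIP-seq a single bound site usually gives a peak about as wide as the sequenced fragments. Neighbouring peaks can come from several nearby sites, from a long enriched stretch that the peak caller broke up, or from places where reads align in blocks. The lists used here do not tell these apart.

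Small clusters were mostly short and ragged in spacing. Of the 69 chains, 34 held 2 regions, 13 held 3, 9 held 4 and 13 held 5 to 8, and no chain held 9. The largest small chain had 8 regions and the smallest dense cluster had 12. The median span was 3158 bp, the shortest 400 bp and the longest 47393 bp. The regions covered 79.4 kb of a summed span of 476 kb (16.7%). Chain by chain the cover varied between 0.808% and 98.4%, with a median of 36.0%.

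Within chains the 159 gaps had a median of 506 bp. Of these gaps 33 were at most 100 bp, 79 at most 500 bp and 17 over 10000 bp. The widest gap inside a small chain was 18604 bp and the narrowest gap that separated a small chain from its neighbour was 21288 bp, on either side of the 20000 bp limit. In 42 chains every gap was at most 2000 bp, and 15 chains had a gap over 10000 bp. Tightly packed runs and thin chains with wide gaps are thus mixed here. The merged regions had a median length of 231.5 bp. They were between 58 bp and 4505 bp long, and 185 of 228 were longer than 100 bp and at most 1000 bp. All 12 chromosomes held small chains, with 10 chains on chromosome 2 and 9 on chromosome 1. The closest approach to a dense cluster was 28957 bp.

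Most small clusters had peaks of more than 1 sample. All 3 samples had peaks in 27 of the 69 chains (39.1%), 2 samples in 29 and a single sample in 13. A sample holds a chain with any peak in it, so the samples of a chain need not share a region. In 1 of the 27 chains no region was in all 3 samples. Some chains of 2 samples had no shared region, such as 2 single peaks of replicates 3 and 2 on chromosome 10, 17783 bp apart. Without replicate 2 there were 52 small chains, of which 24 were in both remaining samples and 28 in a single one. Replicates 1 and 2 alone held 15 chains, replicates 2 and 3 alone held 14, and none was held by replicates 1 and 3 without replicate 2. This was not particular to small clusters. No isolated region and no region of a dense cluster was held by replicates 1 and 3 alone either. The 13 chains of single samples were 7 in replicate 2, 5 in replicate 3 and 1 in replicate 1. Replicate 2, which has the longest list, had peaks in 63 chains, against 43 for replicate 1 and 46 for replicate 3.

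Chains grouped by the samples that held them differed in their median layout, with a wide range in each group. Those of replicates 1 and 2 had a median span of 1620 bp, a median gap of 204.5 bp, a median region length of 251 bp and a median cover of 57.1%. Those of replicates 2 and 3 had a median span of 6303 bp, a median gap of 1500 bp, a median region length of 130 bp and a median cover of 13.4%. Chains with peaks in all 3 samples had medians of 4223 bp for the span, 670 bp for the gap and 36.0% for the cover. The spans ran between 437 and 18719 bp in chains of replicates 1 and 2 and between 433 and 29417 bp in those of replicates 2 and 3, so the ranges overlapped.

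**Figure D1:**
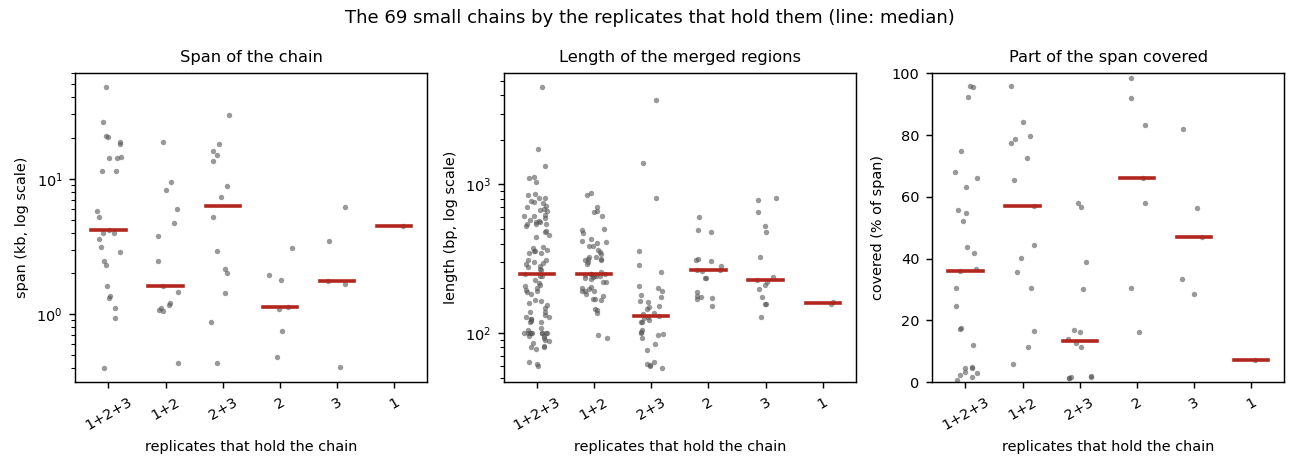
Span of each small chain (kb, log scale), length of each merged region (bp, log scale) and covered part of each span (%), with chains grouped by the replicates that hold them and the median as a red line. Chains of replicates 2 and 3 have the shorter regions (median 130 bp) and the lower cover (median 13.4%), against medians of 251 bp and 57.1% for chains of replicates 1 and 2.

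Sharing was less complete region by region than chain by chain. Of the 228 regions, 51 were held by all 3 samples (22.4%), 85 by 2 samples and 92 by a single sample. All 3 samples held 27 of 363 isolated regions (7.44%) and 121 of 262 regions of dense clusters (46.2%). At least 2 samples held 136 of the 228 regions (59.6%), against 390 of all 853 merged regions. The other classes had 73 of 363 isolated (20.1%) and 181 of 262 dense regions (69.1%). In 42 of 69 chains the regions differed in the samples that held them, and only 5 of the 27 chains seen in all 3 samples had every region in all 3. The regions of a single sample were shorter and lower in score, with a median length of 179 bp and a median score percentile of 31.2. Regions of all 3 samples had a median length of 541 bp and a median percentile of 65.6. A merged region spans all of its peaks, so peaks of more lists can lengthen it, and that part of the length difference was not worked out. The score is the authors' own value for a peak and has no stated unit. A percentile here is a peak's mid-rank within its own list. The score and percentile of a region in a list are those of its highest peak there. The 2 median percentiles of regions above use the mean of these percentiles over the lists that hold a region. Of 36 chains with at least 2 shared regions scored in the same samples, 26 had the same region as the highest-scoring in each of those samples. The number to expect from unrelated scores was not worked out.

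Peaks in small clusters were shared more often than isolated peaks in each of the 3 lists. In replicate 1, 102 of 111 clustered peaks (91.9%) overlapped a peak of another list, against 63 of 150 isolated peaks (42%). In replicate 2 this was 147 of 199 (73.9%) against 78 of 182 (42.9%), and in replicate 3 it was 93 of 124 (75%) against 41 of 140 (29.3%). The means were 80.3 ± 10.1% in small clusters and 38.0 ± 7.60% among isolated peaks (SD, n = 3), a difference of 42.2 percentage points. Dense clusters had 87.0 ± 7.28% (SD, n = 3), above small clusters in 3 of 3 samples. The difference from isolated peaks was 15.7 percentage points among peaks above the median score of their list and 25.3 without replicate 2.

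Clustered peaks also had higher scores for their list. Their median score percentile was 64.9, 60.2 and 59.5 in replicates 1, 2 and 3, against 25.1, 25.3 and 23.3 for isolated peaks, so the groups did not overlap. The mean difference was 37.0 ± 2.55 percentile points (SD of the 3 differences). An exact paired permutation test over the 3 samples gave two-sided p = 0.25, the smallest that 3 pairs allow, and 0.5 adjusted over 2 comparisons. The difference was 6.19 among peaks above the median score. Those peaks were merged and chained anew and kept their percentiles of the full list. Both groups then lay in the upper part of each list, which leaves less room for a difference. Dense clusters had a mean of 63.2 ± 2.16, against 61.5 ± 2.94 in small clusters (SD, n = 3), and the sign of that difference varied between samples (exact permutation p = 0.75, adjusted p = 0.75). Since shared peaks in these lists have higher scores, the part of the score in the sharing was not tested beyond the values above the median score.

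Peak length differed less. Median lengths in small clusters were 314, 215 and 199.5 bp in replicates 1, 2 and 3, against 190.5, 170.5 and 166 bp for isolated peaks. The mean difference of 67.2 bp had the same sign in 3 of 3 samples. It was 42.0 bp without replicate 1 and 135 bp with a chaining gap of 5 kb, and among peaks above the median score it turned to -2.83 bp. Peaks of dense clusters were longer, at 446, 350 and 453 bp.

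**Figure D2:**
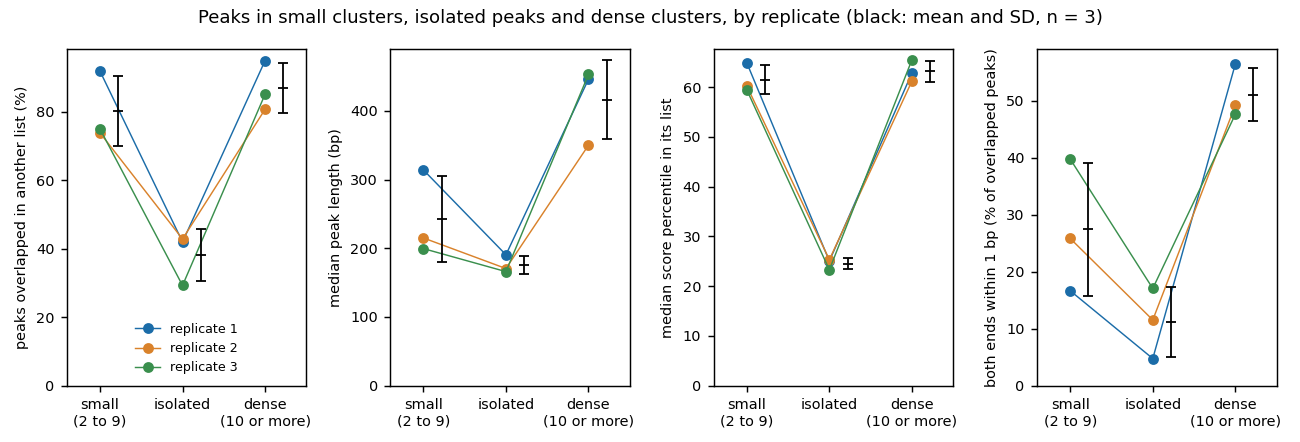
For each replicate, the share of peaks overlapped in another list (%), the median peak length (bp), the median score percentile within the list, and the share of overlapped peaks with both ends within 1 bp of an overlapping peak (%), in small clusters, isolated peaks and dense clusters, with the mean and SD (n = 3) in black. All 3 replicates lie higher in small clusters than among isolated peaks in each of the 4 measures.

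A part of the regions had edges that coincided between samples. A region is called a sharp block here where peaks of at least 2 samples had starts within 1 bp and ends within 1 bp of each other. There were 40 sharp blocks among the 136 small-cluster regions held by at least 2 samples (29.4%), against 9 of 73 shared isolated regions (12.3%) and 109 of 181 shared regions of dense clusters (60.2%). In 24 of the 40 at least 2 samples had the same start and end to the base. Per sample, the share of overlapped peaks whose 2 ends both coincided was 16.7, 25.9 and 39.8% in small clusters of replicates 1, 2 and 3, against 4.76, 11.5 and 17.1% for isolated peaks. The mean difference was 16.3 ± 5.67 percentage points, with the same sign in 3 of 3 samples (SD of the 3 differences). That difference was 8.44 percentage points without replicate 3, 8.83 among peaks above the median score and 5.71 in chains of 2 to 4 regions. For starts alone it was -0.251 in chains of 2 to 4, against 16.0 with all small chains. The chains of 5 to 8 regions held 27 of the 40 sharp blocks and 85 of the 228 regions (37.3%).

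Sharp blocks were not spread evenly over the samples. Of the 40, 22 were held by replicates 2 and 3, 17 by all 3 samples and 1 by replicates 1 and 2. The 15 chains held by replicates 1 and 2 alone contained 55 regions and no sharp block, although 39 of those regions were shared. Among overlapping pairs of small-cluster peaks, both ends coincided in 35 of 96 pairs of replicates 2 and 3 (36.5%), in 14 of 58 pairs of replicates 1 and 3 (24.1%) and in 14 of 112 pairs of replicates 1 and 2 (12.5%). In dense clusters the order was the opposite, at 33.1, 40.7 and 42.7% for the same pairs of replicates. For isolated peaks the values were 17.1, 3.70 and 4.41%. In small clusters the median difference between starts was 3 bp in pairs of replicates 2 and 3 and 21 bp in pairs of replicates 1 and 2. These pairs share neighbours and libraries and were not tested. With replicate 2 left out 13 sharp blocks were found, and with replicate 3 left out 14.

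Sharp blocks were also short. Their median was 102 bp, the longest was 858 bp, and 28 of 40 were at most 200 bp. For the 96 other shared regions the median was 376.5 bp, with 18 at most 200 bp. Each of the 8 regions over 1000 bp was shared and none was a sharp block. A long region leaves more room for its ends to differ, and the part of length in the coincidence was not tested.

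**Figure D3:**
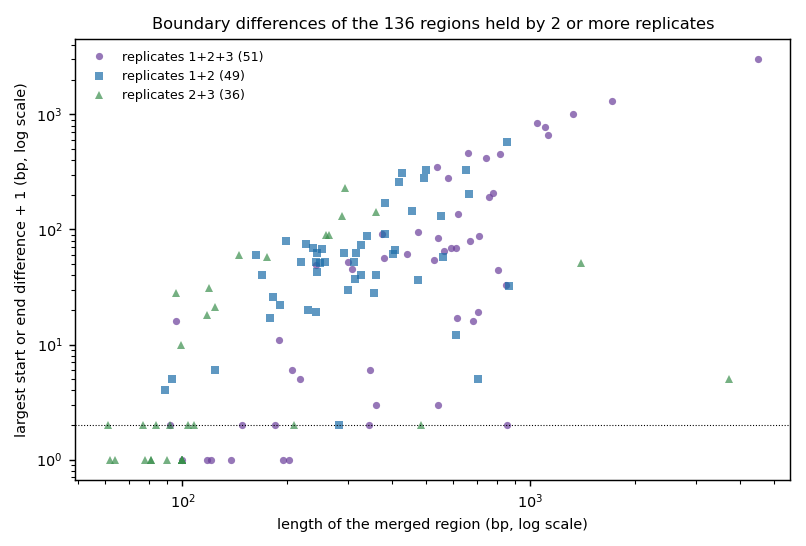
Largest difference between starts or ends among the samples of a region, plus 1 (bp, log scale), against the length of the region (bp, log scale), for the 136 small-cluster regions held by at least 2 replicates; points at or under the dotted line differ by at most 1 bp in every pair. Most points of replicates 2 and 3 at or under the line are short, and a single point of replicates 1 and 2 lies there.

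The sharp blocks gathered in a few chains. Of the 69 chains 16 had a sharp block, and the 11 chains with at least 2 held 35 of the 40. In 7 of these 11 no region exceeded 300 bp. This grouping was made after the values had been seen and is a description. These 7 chains lay on chromosomes 2, 4, 5, 8 and 10. They held 32 regions, 26 of them sharp, and the median region was 100 bp long. Replicate 2 listed 32 of the 32 regions, replicate 3 listed 31 and replicate 1 listed 9. Their score percentiles were in the middle of each list, with medians of 38.1, 63.8 and 62.5 in replicates 1, 2 and 3. In replicate 1 their scores were at most 112, against 269 in replicate 2 and 212 in replicate 3.

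The chain of chromosome 10 from 20463876 to 20484733 had 8 regions, 7 of them sharp, spread over 20.9 kb. Replicates 2 and 3 listed 8 peaks each and replicate 1 listed 3. Its regions were 78 to 184 bp long and covered 4.52% of the span. The region from 20482842 to 20482989 (148 bp) led the chain in each sample, with scores of 80.3, 248 and 212 in replicates 1, 2 and 3. The gaps within the chain were between 84 bp and 10607 bp with a median of 1620 bp, so the narrow blocks were unevenly spaced.

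On chromosome 4 the chain from 9173542 to 9193956 had 5 regions and each was a sharp block. Replicates 2 and 3 listed all 5, and replicate 1 listed 2. The region from 9173542 to 9173679 (138 bp) had the same start and end in all 3 lists, with scores of 58.7, 203 and 193. The region from 9193228 to 9193422 (195 bp) also had the same ends in all 3, with scores of 91.7, 269 and 185. Those 2 were the longest of the chain and were the only ones found in replicate 1.

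The longest small cluster by span was on chromosome 10 from 10863291 to 10910683 (47.4 kb), with 7 regions that covered 1.80% of it. Of its regions 4 were sharp, and the 7 included 3 between 10871224 and 10873559 that had identical ends in replicates 2 and 3. Replicate 1 listed only the last 2 regions. On chromosome 2 the chain from 14278030 to 14289452 had 5 regions of 96 to 119 bp, 3 of them sharp, with 1 peak in replicate 1 and 5 in each of replicates 2 and 3. Chromosome 8 held 3 sharp blocks of 61, 100 and 84 bp from 22323636 to 22325779, all listed by replicates 2 and 3 and none by replicate 1. A pair of sharp blocks of 77 and 92 bp on chromosome 5 from 12888203 to 12888635 was likewise absent from the list of replicate 1. The shortest cluster, on chromosome 10 from 10812020 to 10812419, paired a block of 202 bp found in all 3 samples with a block of 62 bp found in replicates 2 and 3.

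A length of exactly 100 bp recurred in these chains. Over all lists 26 peaks were exactly 100 bp long, and 20 of them were in small clusters, against 2 isolated peaks and 4 in dense clusters. A block counts here once for each list that has it, so these peaks are not separate places. The 20 were 2, 9 and 9 peaks in replicates 1, 2 and 3, and 10 of the 228 merged regions were exactly 100 bp long. Small clusters held 434 of the 1499 peaks of all lists (29.0%). Some of these blocks also had equal scores. In replicate 2 a score of 145.96 was given to 100 bp blocks at 3 places, from 20463876 on chromosome 10, from 9193590 on chromosome 4 and from 22325269 on chromosome 8. In replicate 3 the first 2 of these blocks had 125.68 each, as did the 100 bp block from 14278030 on chromosome 2. That last block had 126.17 in replicate 2, as did the blocks from 10871224 and from 10873460 on chromosome 10. Leaving out scores at the limit of 3100, 8 of 196 small-cluster peaks of replicate 2 had both the length and the score of another peak of the list, against 4 of 176 isolated and 0 of 238 dense ones. In replicate 3 these were 8 of 123, 4 of 139 and 0 of 174. In replicate 1 they were 0 of 110, 6 of 148 and 0 of 179. What the reads at these blocks look like was not tested.

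**Figure D4:**
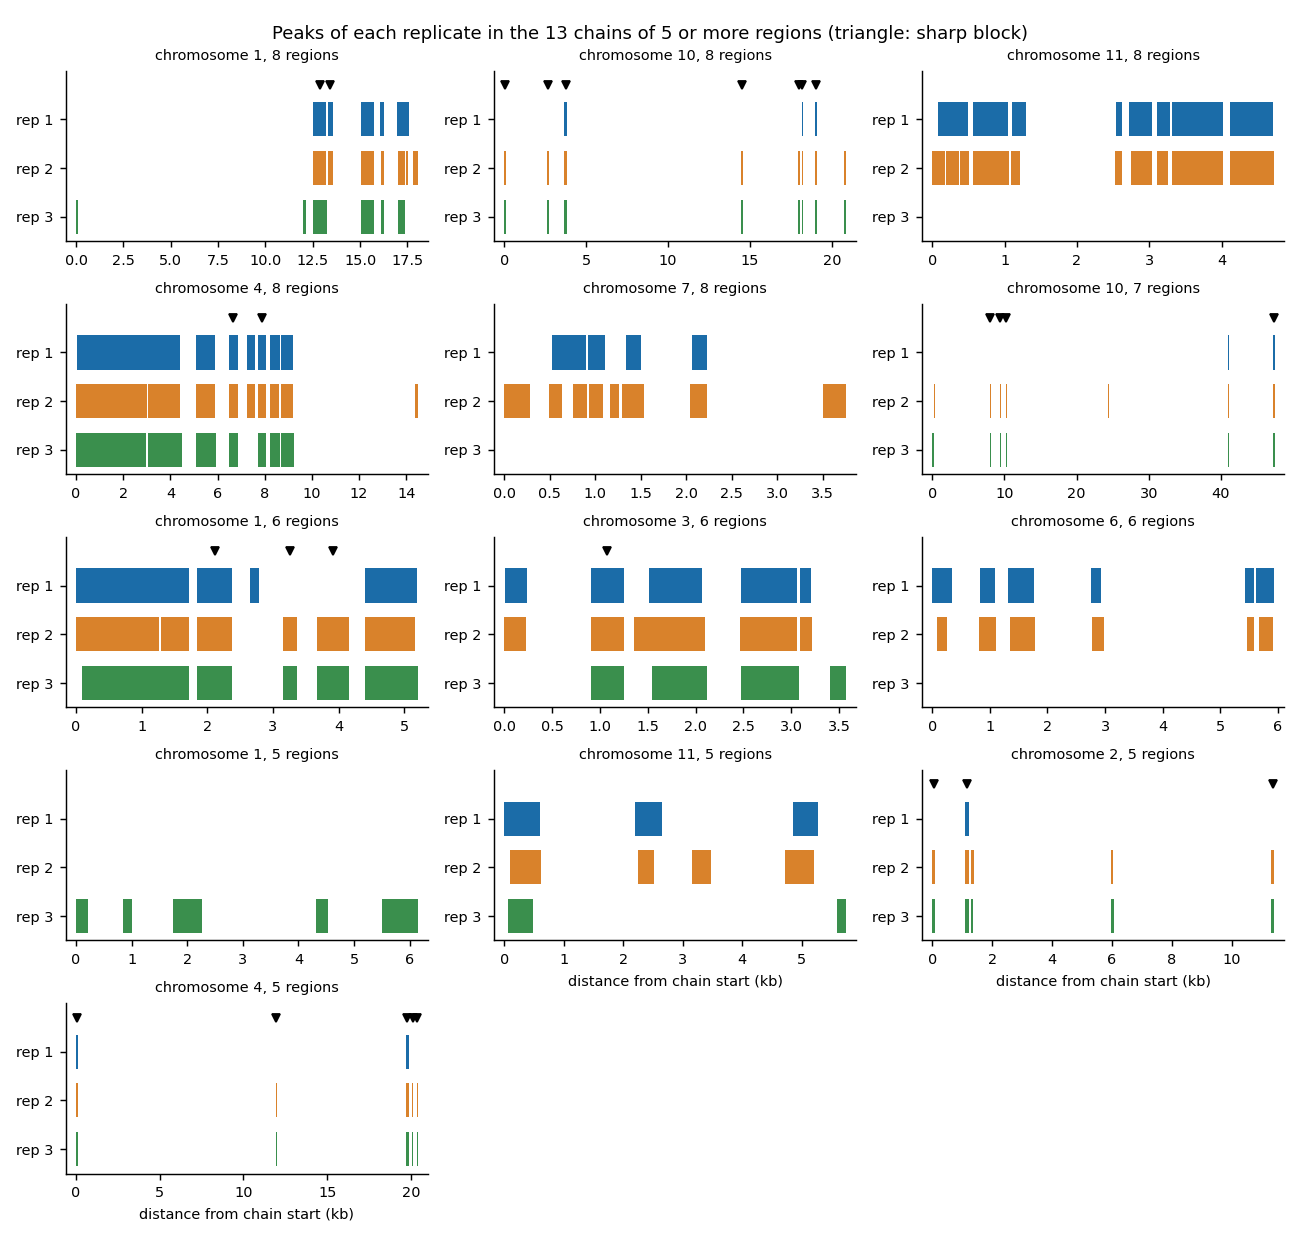
Peaks of replicates 1, 2 and 3 (blue, orange and green) in the 13 chains of 5 to 8 regions, by distance from the start of the chain (kb, a separate scale in each panel), with triangles over sharp blocks; peaks under 0.4% of the span are drawn at that width. Thin chains such as the 2 on chromosome 10 carry narrow blocks in replicates 2 and 3, while the compact chains on chromosomes 6, 7 and 11 (8 regions) have no peak in replicate 3.

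The compact chains had another layout, with longer blocks packed closely. The chain of chromosome 11 from 194336 to 199060 had 8 regions in 4.73 kb, with gaps of 31 to 1240 bp. Replicate 1 listed 8 peaks that covered 63.3% of the span and replicate 2 listed 11 that covered 61.8%, while replicate 3 listed none. The scores were highest at the far end. The region from 198448 to 199060 (613 bp) scored 1622 in replicate 1 and 1926 in replicate 2, and the region from 197647 to 198351 (705 bp) scored 1174 and 1494. Both starts agreed to 1 bp between the samples, and their ends differed by 11 and 4 bp. The lowest score in this chain stood at percentile 52.6 of replicate 1 and 56.0 of replicate 2.

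On chromosome 6 the chain from 2806926 to 2812863 had 6 regions, each listed by replicates 1 and 2 and none by replicate 3. Its blocks were 169 to 474 bp long and covered 30.5% of 5.94 kb. The region from 2808235 to 2808708 (474 bp) was the highest in both samples, with scores of 652 and 1464. Every peak of this chain stood at or above percentile 76.5 of replicate 1 and 85.4 of replicate 2. The cluster on chromosome 7 from 2643812 to 2647567 was of the same holders but lower in score. Replicate 2 listed 9 peaks there and replicate 1 listed 4, with highest scores of 185 and 102. The 4 regions that replicate 1 lacked had scores of 52.9, 57.5, 55.3 and 158 in replicate 2, the first 3 of them at or below percentile 19.8 of its list.

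A chain of replicate 3 alone resembled these in layout. On chromosome 1 from 7687274 to 7693420 that sample listed 5 peaks of 156 to 653 bp, which covered 28.6% of the span, and replicates 1 and 2 listed none. The peak from 7692768 to 7693420 scored 770 and that from 7689010 to 7689530 scored 539, at percentiles 94.6 and 92.1 of its list. Of the 5 chains held by replicate 3 alone the median of the best percentile was 90.1. It was 60.1 for the 7 chains of replicate 2 alone, and the only chain of replicate 1 alone reached 3.75. A chain missing from a list may have had reads below the calling threshold, since the depth of the libraries is unknown.

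Longer blocks shared by all 3 samples formed a further set of chains. On chromosome 4 the chain from 32883341 to 32897833 had 8 regions, 6 of them in all 3 samples, with 7.67 ± 1.15 peaks per sample that covered 49.0 ± 1.05% of 14.5 kb (SD, n = 3). Its first region, of 4505 bp, was the longest of all small-cluster regions and scored 451, 917 and 549 in replicates 1, 2 and 3. Replicate 1 listed it as 1 peak and the other lists broke it in 2. On chromosome 1 the chain from 33582393 to 33587600 had 4, 6 and 5 peaks in replicates 1, 2 and 3, which covered 67.4 ± 5.43% (SD, n = 3). It had 3 sharp blocks, of 541, 209 and 485 bp, and its first region of 1719 bp had the highest score of the chain in each sample, at 290, 429 and 355.

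A second chain of chromosome 1, from 18671192 to 18689243, had 5, 7 and 6 peaks in replicates 1, 2 and 3, which covered 13.6 ± 1.12% (SD, n = 3). Only its first region, a peak of replicate 3 with a score of 50.04, lay 11846 bp from the rest. The remaining 7 regions lay within a compact run in which 4 were held by all 3 samples. On chromosome 3 the chain from 13641699 to 13645271 had 6 regions and was covered to 51.9 ± 4.95% (SD, n = 3), with highest scores of 113, 162 and 108. On chromosome 11 the chain from 11895398 to 11901139 had 5 regions and no sharp block, and its highest scores were 87.7, 94.5 and 75.04. These stood at percentiles 52.4, 52.2 and 44.8 of their lists. All 3 samples shared 1 of its 5 regions.

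Small clusters also held some of the highest-scoring regions of the series. Of the 25 merged regions with the highest mean score among those held by at least 2 samples, 12 were in small clusters, against 8 isolated and 5 in dense clusters. Of the 390 regions that could have been among them, 136 (34.9%) were in small clusters, against 73 isolated and 181 in dense clusters. The rank averages raw scores over different samples for different regions and the scores have a limit, so it is a rule for choosing what to describe. Ranked instead by mean percentile, an order chosen after seeing the data, 14 of 25 were in small clusters. The strongest pair was on chromosome 11 from 12122367 to 12123487. Its first block, of 858 bp, scored 3100 in each sample, at which the scores stop, and its second, from 12123271 to 12123487 (217 bp), scored 1477, 2704 and 1712 in replicates 1, 2 and 3. Both blocks were sharp, the gap between them was 46 bp, and peaks covered 95.6 ± 0.178% of the span (SD, n = 3). Farther along chromosome 11, a block of 207 bp from 12266494 to 12266700 scored 790, 2276 and 1490. It was chained over 13855 bp to a region that replicates 2 and 3 listed with scores of 79.3 and 57.6.

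On chromosome 2 the chain from 28863564 to 28867531 had 3 blocks held by all 3 samples and another in replicate 3 alone. The block from 28863564 to 28864154 (591 bp) scored 2182, 3100 and 933 in replicates 1, 2 and 3. The block from 28865398 to 28865925 (528 bp) scored 1136, 3100 and 1150, and that from 28866383 to 28867198 (816 bp) scored 391, 1809 and 678. These highest peaks of each block all stood at or above percentile 89.9 of their lists. A second peak of replicate 2 in the block of 816 bp stood at percentile 88.3. The block of replicate 3 alone, of 277 bp, had a score of 58.0 at percentile 26.1 of replicate 3. None of the 4 was a sharp block. In the shared ones no pair of samples had both ends within 1 bp, and the edges differed by 35 to 455 bp at the most distant pair. The gaps were 1243, 457 and 56 bp.

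On chromosome 9 the chain from 16411494 to 16415716 paired a weak and a strong block, both in all 3 samples. The first, of 189 bp, scored 66.4, 130 and 61.3, and the second, from 16414615 to 16415716 (1102 bp), scored 1127, 2036 and 868. They lay 2932 bp apart, and peaks covered 29.1 ± 0.595% of the span (SD, n = 3). On chromosome 8 blocks of 1043 and 613 bp between 25274712 and 25278665 were held by all 3 samples. The first scored 1646, 1472 and 1087 and the second 475, 657 and 580. The order of the 2 blocks was the same in each sample in both chains.

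On chromosome 3 the chain from 27418539 to 27420864 was almost continuous, with gaps of 34 and 71 bp. Peaks covered 92.7% of it in replicate 1 and 91.8% in replicate 2, against 27.6% in replicate 3. The region from 27419743 to 27420864 (1122 bp) scored 1252 and 1733 in replicates 1 and 2 and 122 in replicate 3. Its neighbour from 27419113 to 27419671 scored 761 and 810 and was not listed by replicate 3. These percentiles were 97.8 and 97.2 in replicates 1 and 2 and 67.3 in replicate 3 for the longest region, so replicate 3 held this chain only at a middling rank.

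**Figure D5:**
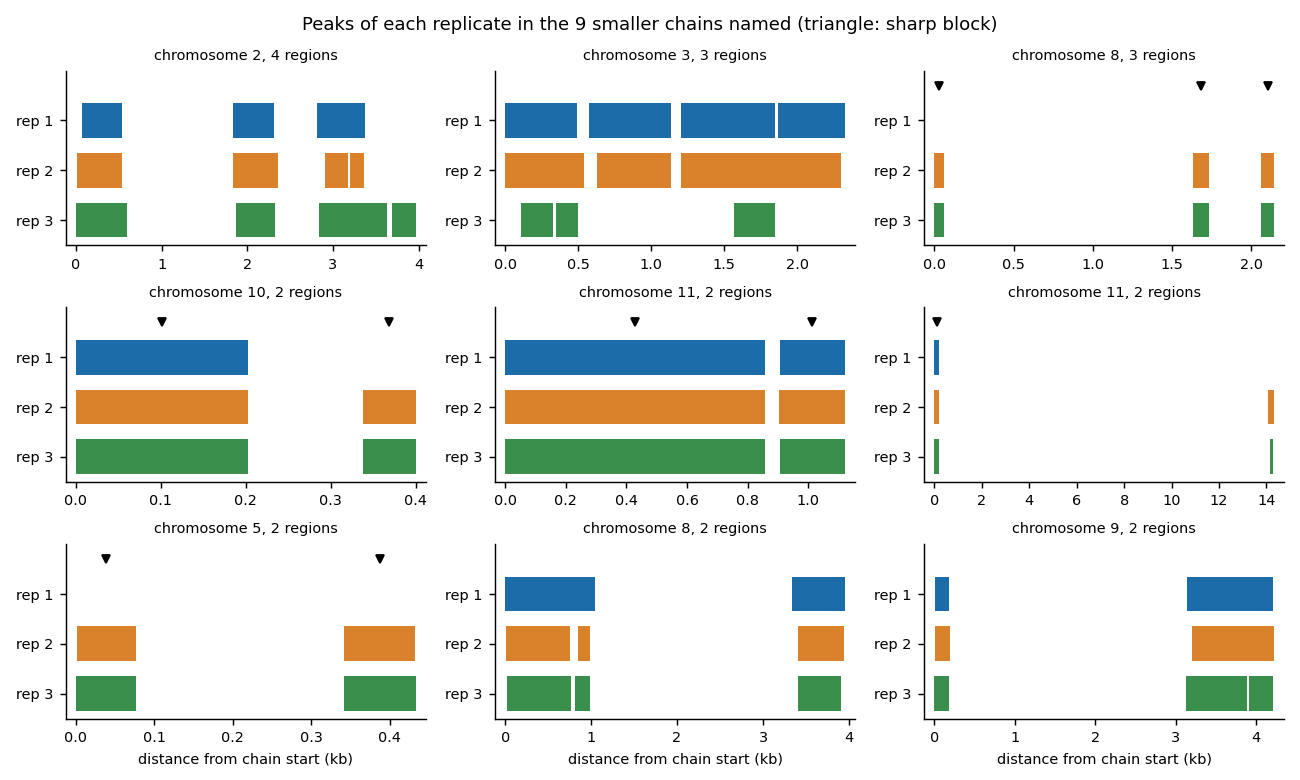
Peaks of replicates 1, 2 and 3 (blue, orange and green) in the 9 other chains described, each with 2 to 4 regions, by distance from the start of the chain (kb, a separate scale in each panel), with triangles over sharp blocks. The panels of chromosomes 2, 3 and 9 show edges that differ between replicates, while both blocks of the chromosome 11 pair that scores 3100 in each sample have edges that line up.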

How the data were processed

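Anti-Flag ChIP-seq of 3 seedling samples of 1 group was used. Per the labels' protocols, tissue was fixed with 1% formaldehyde for 15 min, chromatin was sonicated to about 500 bp and fragments of 100 to 500 bp were selected. The authors deposited 1 peak list per sample, with a score per peak, and each deposited peak is named after MACS, a peak caller. The sources used here do not give its version and settings, the control, the aligner, the depth or the build. Scores ranked peaks within their own list. The lists held 440, 620 and 439 peaks.

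Positions are 1-based in the coordinates of the lists. Because the build is unknown, genes, exons, sequences and motifs, which had been planned, were not analysed here. Members and lists were chosen with earlier results of these data known. Chains described were those of 5 to 9 regions, those with at least 2 sharp blocks, those with a region among the 25 highest mean scores, and the longest and shortest span, 22 in all. Scores of the classes were compared over samples with exact paired permutation tests (sign flips, two-sided, Benjamini-Hochberg over 2), which with 3 pairs cannot go below 0.25. The tests planned for overlap, length and edges were not used, because positions chose the classes. Counts depend on the authors' calling threshold. The code was tested on simulated lists. Computation was done in Python 3.11.15 with SciPy 1.17.1, pandas 2.3.3 and NumPy 2.4.6, and plots were drawn with Matplotlib 3.10.9. Alternative settings were chaining gaps of 5, 10 and 50 kb, peaks above the median score, chains of 2 to 4, a reciprocal overlap of 50%, boundary tolerances of 0 and 10 bp, and leaving out each replicate. Where peaks were left out, the remaining ones were merged and chained anew, so the classes were not made of the same peaks.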

Additional observations from a re-analysis of the deposited data

How the results depend on the processing

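Of 98 values recomputed under alternative settings, 53 of 55 differences between small clusters and isolated peaks kept their sign and 31 of 43 counts stayed within 1.5 times. Of the differences other than that of the score percentile, 21 moved by more than the SD of the 3 samples' differences. The score percentile was judged only by whether its p passed 0.05, which the permutation test cannot reach here. Its difference (37.0, SD 2.55) moved by more than that SD in 2 settings that are not among the 21. These were 6.19 among peaks above the median score and 34.0 with a gap of 50 kb. The cause was not tested where none is named. The difference in median length, small clusters minus isolated peaks, was -2.83 bp among peaks above the median score and 135 bp with a gap of 5 kb. The difference in the overlapped share was 15.7 percentage points among peaks above the median score and 25.3 to 36.4 with 1 replicate left out. For coinciding starts (16.0) the values were -0.251 in chains of 2 to 4, 19.96 and 21.2 with gaps of 5 and 10 kb, 9.99 at a tolerance of 10 bp and 13.7 to 25.4 with 1 replicate left out. For ends (19.9) they were 17.8 and 18.6 with gaps of 5 and 50 kb, 11.5 above the median score, 11.0 in chains of 2 to 4, 19.0 and 11.4 at tolerances of 0 and 10 bp and 18.5 to 21.1 with 1 replicate left out. For both ends they were 8.83 above the median score, 5.71 in chains of 2 to 4, 9.94 at 0 bp and 8.44 to 22.4 with 1 replicate left out, lowest without replicate 3. Peaks above the median score, which are fewer by construction, gave 137 regions in 40 chains, 34 of them in at least 2 samples, 17 in all 3 and 6 in 1. Sharp blocks numbered 13 in chains of 2 to 4 and 24 at 0 bp. Leaving out 1 replicate gave 173 to 221 regions, 52 to 67 chains, 24 to 42 chains in both remaining samples, 17 to 28 in 1 sample and 13 to 35 sharp blocks, with the fewest shared chains without replicate 2. Read depth is unknown, which limits what a missing region can show.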
